A study of Mus musculus with 9 samples.

Results

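The TNF superfamily was read out of the RNA sequencing of mouse retinal ganglion cells (RGCs) as every gene whose symbol is Tnfsf or Tnfrsf with a number, together with Tnf, Lta, Ltb, Ltbr, Fas, Fasl, Cd40, Cd40lg, Cd27 and Cd70. This rule found 41 genes among the 22322 of the deposited table, 17 ligands and 24 receptors, and it used symbols only, not measured values. Of these members, 25 had enough reads to be tested, 9 ligands and 16 receptors, and 16 did not.

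Ligands of this family are mostly trimeric membrane proteins, some of which are shed by proteases, and they signal by clustering receptors on the same or a neighbouring cell. Receptors with a death domain, such as Tnfrsf1a and Fas, can lead to caspase activation, while most others recruit TRAF adaptors and lead to NF-kB and JNK signaling. In the retina, TNF and its receptors are known from glia and RGCs under injury, whereas many other members are best known from lymphocytes and antigen-presenting cells.

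The study set 3 groups of 3 cultures side by side, 9 libraries in all, to ask how D-galactose and medium from stem cells change gene expression in RGCs. Normal RGCs were untreated, aging RGCs had been given D-galactose, a sugar used to induce senescence, and aging RGCs + USCs medium had been given D-galactose and then medium conditioned by human urine-derived stem cells (USCs), with the USCs removed. All cells were purchased mouse RGCs labelled WT, the replicates were wells, and p-values therefore measure the spread between wells only. No library here comes from normal RGCs in USCs medium or from aging RGCs in the same medium without conditioning, so products of USCs and the medium itself cannot be told apart. For short, this last group is called the medium. Library totals ran from 18189616 to 22342288 expected counts over the 9 libraries.

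The label was checked against cell type markers. Of 16 RGC markers, 4 were at 0 in every library (Pou4f2, Pou4f3, Stmn2 and Rbfox3), 10 stayed below 10 counts in every library, and Thy1 reached at most 1 count. Rbpms, Isl1, Nefl and Tubb3 were detected, but so were the epithelial keratins Krt8, Krt18 and Krt19 at 4578 to 14874 counts a library and the mesenchymal gene Vim at 33679 to 41046 counts. Of 8 epithelial markers, 4 stayed below 10 counts in every library (Krt5, Krt14, Cdh1 and Cldn4), as did 1 of 7 mesenchymal markers, Col1a2. The RGC identity thus rests on the label, and the groups are called by their labels here. Among 10 lymphocyte markers, 5 were at 0 in every library (Cd3e, Cd3g, Cd8a and Ms4a1 among them), and their summed level did not exceed 1.94 CPM, a count scaled to the TMM-normalized library size. The 17 macrophage markers, none of them at 0 in every library, had a summed level of 86.2 to 98.8 CPM among normal libraries, 60.9 to 71.0 CPM among aging libraries and 48.2 to 87.0 CPM among medium libraries, of which replicate 3 was highest. For Adgre1, which marks macrophages, the counts were 57, 19 and 43, then 2, 0 and 1, then 2, 2 and 32 in the same order of groups. C1qa, C1qb and C1qc were at 0 counts in every aging library, but not all markers followed Adgre1. Cd68, the highest of the list in every library, had 833, 884 and 750, then 746, 838 and 807, then 592, 577 and 678 counts. Cd14 had 311, 256 and 244, then 232, 240 and 262, then 272, 291 and 333 counts. Macrophages express several members of the family, and their part in the results below was not tested. Fewer cells of a type and less RNA per cell cannot be told apart in these bulk libraries.

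The upstream sequences of Tnfrsf9, Tnfsf15 and Tnfrsf1a are shown as examples from the 6 members called in both comparisons that involve aging RGCs, the first pair higher with D-galactose and lower in the medium, and Tnfrsf1a the opposite way. The others are Tnfsf4, Tnfrsf22 and Tnfrsf23, and the RefSeq promoter of Tnfrsf23 held a kB match. Each is the 250 bases before a transcription start of RefSeq on GRCm38.p6, read 5′ to 3′ on the gene's strand. Tnfrsf9 has starts at different places, with the upstream stretches chr4:150919905-150920154 and chr4:150927749-150927998 on the plus strand. Tnfrsf1a is at chr6:125349473-125349722 on the plus strand and Tnfsf15 at chr4:63745060-63745309 on the minus strand. Capitals mark matches on either strand to the kB motif (GGG, any 5 bases, CC), the AP-1 motif (TGA, any base, TCA) and the STAT motif (TTC, any 3 bases, GAA).
Tnfrsf9, first start: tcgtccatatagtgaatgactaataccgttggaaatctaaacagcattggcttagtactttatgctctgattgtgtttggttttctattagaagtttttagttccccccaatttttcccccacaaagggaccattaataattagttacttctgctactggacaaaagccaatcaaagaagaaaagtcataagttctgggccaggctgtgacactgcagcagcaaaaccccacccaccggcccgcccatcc
Tnfrsf9, second start: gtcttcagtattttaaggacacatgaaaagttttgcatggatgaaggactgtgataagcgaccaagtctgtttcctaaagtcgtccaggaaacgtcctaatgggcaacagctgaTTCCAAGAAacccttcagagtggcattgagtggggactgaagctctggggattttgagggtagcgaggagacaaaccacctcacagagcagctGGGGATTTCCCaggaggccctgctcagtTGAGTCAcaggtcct
Tnfrsf1a: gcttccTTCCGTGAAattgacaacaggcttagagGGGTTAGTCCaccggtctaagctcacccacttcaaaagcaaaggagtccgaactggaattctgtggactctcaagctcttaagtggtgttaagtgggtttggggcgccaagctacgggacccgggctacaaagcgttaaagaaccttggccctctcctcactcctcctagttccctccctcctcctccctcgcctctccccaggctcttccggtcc
Tnfsf15: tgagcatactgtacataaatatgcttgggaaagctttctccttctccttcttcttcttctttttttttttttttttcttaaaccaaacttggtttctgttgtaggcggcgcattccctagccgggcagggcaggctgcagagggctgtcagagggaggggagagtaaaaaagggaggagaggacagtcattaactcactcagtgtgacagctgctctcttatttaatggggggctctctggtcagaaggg
The second Tnfrsf9 start had the overlapping kB matches GGGGATTTCC and GGGATTTCCC, beginning 43 and 42 bases before the start, an AP-1 match beginning 15 bases before it and a STAT match beginning 136 bases before it. Tnfrsf1a had a kB match beginning 216 bases and a STAT match beginning 244 bases before its start. No match was found upstream of the first Tnfrsf9 start or of Tnfsf15. These motifs are short, and in windows of 300 bases, from 250 before to 50 after a start, 50.8% of all 32851 promoters held a kB match, 7.81% an AP-1 match and 8.3% a STAT match. RefSeq promoters were matched for 31 of the 41 members, and 22 of their 35 promoters held a kB match (62.9%), 7 an AP-1 match (20%) and 9 a STAT match (25.7%). A match is a description of letters and does not show binding.

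Receptors were more abundant than ligands at the RNA level. In FPKM, the length-scaled unit deposited by the authors, the receptors of a library summed to 319 to 354 and the ligands to 20.0 to 32.0. The highest member was Tnfrsf12a, the receptor of TWEAK, at 116, 117 and 121 FPKM in normal RGCs, 122, 127 and 125 FPKM in aging RGCs and 128, 127 and 121 FPKM in the medium. It alone made up 35.5% to 39.8% of the receptor sum of a library. Next came Tnfrsf1a, the main TNF receptor with a death domain, at 47.2 to 62.2 FPKM over the 9 libraries, and Ltbr, the lymphotoxin beta receptor, at 29.2 to 32.7 FPKM. Tnfrsf23, Tnfrsf10b, Tnfrsf22 and Tnfrsf1b, of which Tnfrsf10b is the mouse death receptor for TRAIL and Tnfrsf22 and Tnfrsf23 are TRAIL receptors that lack a death domain, lay between 18.3 and 32.9 FPKM, and their ranges overlapped. Among ligands, Tnfsf9 (4-1BBL) was highest at 14.8 to 22.95 FPKM and made up 68.4% to 79.5% of the ligand sum. No other ligand exceeded 3.99 FPKM in any library, and Tnf itself lay between 1.01 and 2.84 FPKM.

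**Figure D1:**
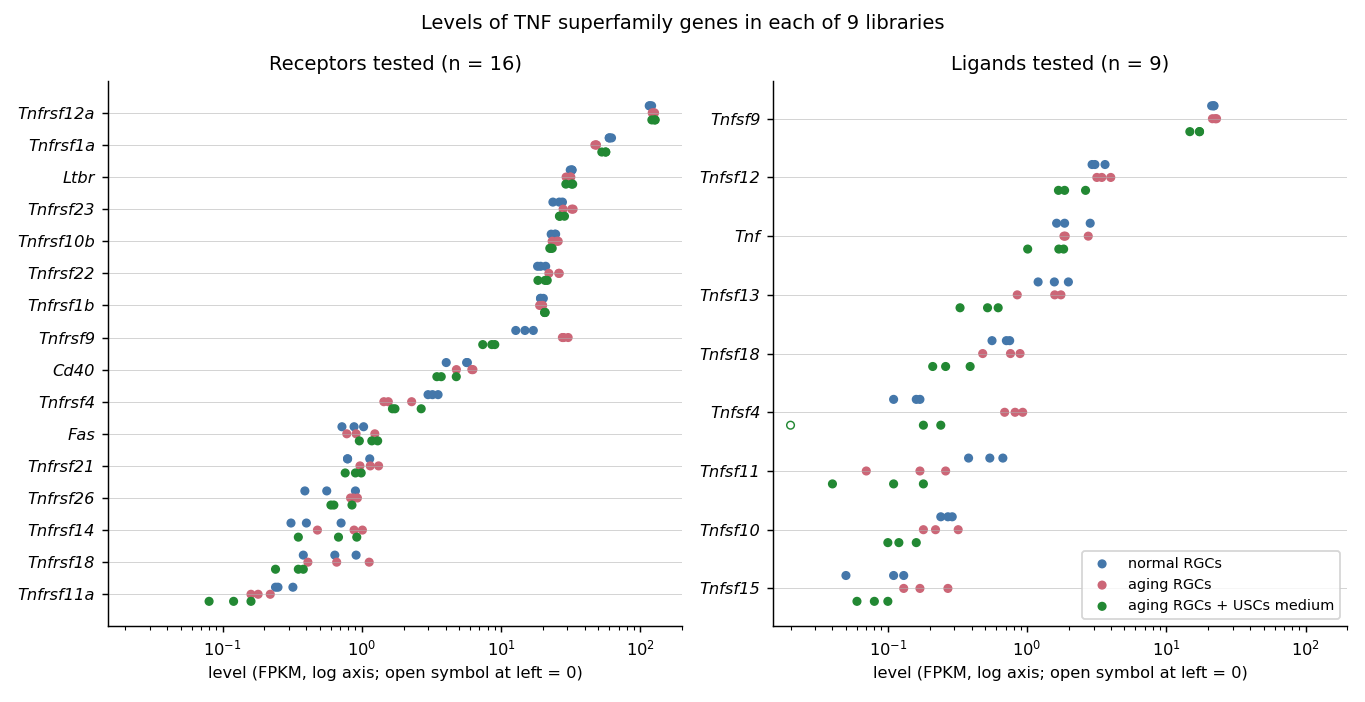
Level of each tested member in FPKM on a log axis, receptors at left and ligands at right, 1 point per library and 3 per group (an open symbol stands for 0). Tnfrsf12a leads the receptors at 116 to 128 FPKM and Tnfsf9 leads the ligands at 14.8 to 22.95 FPKM.

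The summed ligand level was lower in the medium than in the other groups. Ligands summed to 30.4 ± 0.569 FPKM (SD, n = 3) in normal RGCs, 31.7 ± 0.344 FPKM in aging RGCs and 21.4 ± 1.30 FPKM in the medium. Receptors summed to 327 ± 6.64, 344 ± 11.5 and 321 ± 3.51 FPKM in the same groups. The receptor sum was 10.3 to 11.05 times the ligand sum in the normal and aging libraries and 14.4 to 15.9 times in the medium, and the ligand sums of the medium did not overlap those of the other groups. These sums are given as a description, without a test, and Tnfsf9, which overlaps Gm11110 on the other strand, dominates the ligand sum. The counting's strand setting is not stated in the sources.

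The members that were not tested include many ligands and receptors of lymphocytes. Cd70, Cd40lg, Tnfsf14, Tnfsf8 and Tnfrsf17 had 0 counts in all 9 libraries, which allows a level of up to 0.162 CPM in the shallowest library (3 counts, counting error only). Tnfrsf19 had 16, 28 and 4 counts in normal RGCs and 1 to 9 in the libraries of the other groups. Fasl, Lta, Ltb, Tnfsf13b, Cd27, Tnfrsf8, Tnfrsf11b, Tnfrsf13b, Tnfrsf13c and Tnfrsf25 did not exceed 8 counts in any library. Neighbouring members differed in whether they were detected. On chromosome 17 of GRCm38, Tnf (35199381 to 35202007) was detected beside Lta (35203165 to 35205351) and Ltb (35194439 to 35196320), which had at most 3 and 6 counts. On the same chromosome, Tnfsf9 (57105325 to 57107757) had 401 to 635 counts beside Cd70 (57145997 to 57149777) and Tnfsf14 (57189492 to 57194177), both at 0.

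In aging RGCs relative to normal RGCs, the ligands Tnfsf4 and Tnfsf15 and the receptors Tnfrsf9, Tnfrsf22 and Tnfrsf23 were higher, and the ligand Tnfsf11 and the receptors Tnfrsf1a and Tnfrsf4 were lower. A gene was called at an adjusted p under 0.05 (edgeR, quasi-likelihood F test, adjusted by Benjamini-Hochberg over the 12145 genes tested), and a DEG also differs by at least 2-fold. Thus 5 of 25 members were higher, against 23.6% of all genes tested, and 3 were lower, against 23%. Tnfsf4 and Tnfsf15 were upregulated DEGs, against 1.09% of all genes, and Tnfsf11 was a downregulated DEG, against 1.56%. The 3 DEGs are low genes, and they passed the read filter through the group where they were high, so their direction is in part fixed by the filter. On CPM from unscaled library totals, which the filter uses, Tnfsf4 exceeded the filter level of 0.498 CPM in 3 aging libraries and in none of the others, Tnfsf15 in 2 normal, 3 aging and 0 medium libraries, and Tnfsf11 in 3 normal, 1 aging and 0 medium libraries. Among the 19 members with a mean of at least 1 CPM over all libraries, 3 were higher, 2 were lower and none was a DEG. Groups did not overlap for 10 of 25 members, against 53% of all genes tested. The median log2 fold change was 0.10 over the members and 0.0018 over all genes.

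Tnfsf4 (OX40L, chr1:161395409-161418410, plus strand) is the costimulatory ligand of Tnfrsf4. It was measured at 0.303, 0.194 and 0.296 CPM in normal RGCs, 1.68, 1.49 and 1.27 CPM in aging RGCs and 0.462, 0.347 and 0 CPM in the medium, which are 4 to 7, 25 to 31 and 0 to 9 counts. Every aging library lay above every other library. The log2 fold change of aging over normal was 2.45 (standard error 0.486, edgeR adjusted p = 0.000139), that of the medium over aging -2.42 (0.493, 0.000148), and that of the medium over normal 0.03 (0.655, 0.976), with a 95% interval of -1.32 to 1.37. Both calls were kept with each library left out in turn, but Tnfsf4 passed the read filter through the aging libraries only. Its being highest there is thus in part fixed by the filter. Leaving out a library moved the change with the medium to between -3.02 (without medium replicate 1) and -1.85 (without medium replicate 3).

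Its receptor Tnfrsf4 (OX40) moved the other way with D-galactose. Tnfrsf4 was at 3.21, 3.54 and 3.01 CPM in normal RGCs, 1.57, 2.32 and 1.47 CPM in aging RGCs and 2.88, 1.79 and 1.84 CPM in the medium. All normal libraries lay above all others. The log2 fold change of aging over normal was -0.86 (standard error 0.243, edgeR adjusted p = 0.0045). In the medium Tnfrsf4 differed from aging RGCs by 0.28 (0.258, adjusted p = 0.381) and from normal RGCs by -0.58 (0.235, adjusted p = 0.0335). The last call was lost without normal replicate 1 or 2 or medium replicate 2 or 3, with adjusted p of 0.066, 0.0961, 0.143 and 0.122 by edgeR. With all libraries its adjusted p ran from 0.0102 to 0.0527 over the alternatives, the highest from DESeq2.

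Tnfsf15 (TL1A, chr4:63727084-63745113, minus strand), a ligand known from endothelial and myeloid cells, had 17, 4 and 10 counts in normal RGCs, 24, 15 and 19 in aging RGCs and 8, 6 and 7 in the medium. On the CPM scale the 3 aging values, 1.30, 0.773 and 0.962, were above the normal values of 0.736, 0.194 and 0.493 and the medium values of 0.411, 0.298 and 0.358. The log2 fold change with D-galactose was 1.05 (standard error 0.432, edgeR adjusted p = 0.0464). This call was lost without normal replicate 2 (log2 fold change 0.69, adjusted p = 0.232), normal replicate 3 (1.07, 0.0937), aging replicate 1 (0.84, 0.192) or aging replicate 3 (1.09, 0.0853). With all libraries, alternatives gave adjusted p of 0.0139 to 0.0868, the last from DESeq2. The fall with the medium was -1.49 (0.465, edgeR adjusted p = 0.00828), and without aging replicate 1 it was -1.27 (adjusted p = 0.0518).

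Tnfsf11 (RANKL, chr14:78277445-78308043, minus strand), the osteoclast differentiation factor, had 19, 30 and 24 counts in normal RGCs, 7, 11 and 3 in aging RGCs and 8, 5 and 2 in the medium. These are 0.823, 1.45 and 1.18 CPM, 0.379, 0.567 and 0.152 CPM, and 0.411, 0.248 and 0.102 CPM. All normal libraries were above all D-galactose libraries, with or without the medium. The log2 fold change was -1.64 for aging over normal (standard error 0.464, edgeR adjusted p = 0.00475), -0.51 for the medium over aging (0.614, 0.504) and -2.15 for the medium over normal (0.495, 0.000469). The receptor of Tnfsf11, Tnfrsf11a (RANK, chr1:105780718-105847981, plus strand), was at 1.17, 1.21 and 1.58 CPM, then 1.08, 0.773 and 0.911 CPM, then 0.616, 0.397 and 0.819 CPM in the same order of groups. Neither step passed the test on its own, at -0.51 (0.338, adjusted p = 0.222) and -0.59 (0.386, adjusted p = 0.205), while the medium lay below normal RGCs by 1.10 on the log2 scale (log2 fold change -1.10, standard error 0.361, edgeR adjusted p = 0.00981). That call was lost without normal replicate 3 (-0.96, adjusted p = 0.0525) or medium replicate 2 (-0.87, adjusted p = 0.0685).

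Tnfrsf9 (4-1BB, chr4:150914562-150946102, plus strand), a costimulatory receptor that recruits TRAF adaptors and is known as an activation marker of T cells, had the smallest adjusted p of the members in every comparison. It was at 21.9, 26.9 and 23.8 CPM in normal RGCs, 46.1, 46.8 and 46.4 CPM in aging RGCs and 12.6, 13.2 and 11.6 CPM in the medium, and no library of a group overlapped another group. Aging over normal gave a log2 fold change of 0.94 (standard error 0.070, edgeR adjusted p = 8.05e-12), just under the 2-fold line. The medium over aging gave -1.90 (0.0775, adjusted p = 1.28e-17), a fold of 3.73, and the medium over normal -0.96 (0.082, adjusted p = 5.69e-11). With each library left out, these changes stayed at 0.87 to 1.02, -1.94 to -1.85 and -1.03 to -0.88. The steps were larger than the spread between libraries, with group means of 24.2 ± 2.53, 46.4 ± 0.319 and 12.4 ± 0.798 CPM (SD, n = 3).

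Tnfsf9, the ligand of Tnfrsf9, did not follow its receptor in the first step. It was at 27.5, 27.4 and 26.7 CPM in normal RGCs, 27.2, 29.3 and 28.7 CPM in aging RGCs and 23.4, 19.9 and 23.1 CPM in the medium. Aging and normal libraries overlapped (log2 fold change 0.06, 95% interval -0.08 to 0.21, edgeR adjusted p = 0.495). All medium libraries lay below the rest, at -0.36 from aging RGCs (standard error 0.0723, edgeR adjusted p = 0.000127) and -0.30 from normal RGCs (0.0719, adjusted p = 0.000761). In FPKM, the receptor stood at 0.687 ± 0.102 of its ligand in normal RGCs, 1.29 ± 0.0525 in aging RGCs and 0.510 ± 0.0781 in the medium. The receptor therefore exceeded the ligand in the 3 aging libraries, at 1.23 to 1.32, and in no other library. Because Tnfsf9 overlaps Gm11110 on the other strand and the counting's strand setting is not stated, its values are uncertain.

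**Figure D2:**
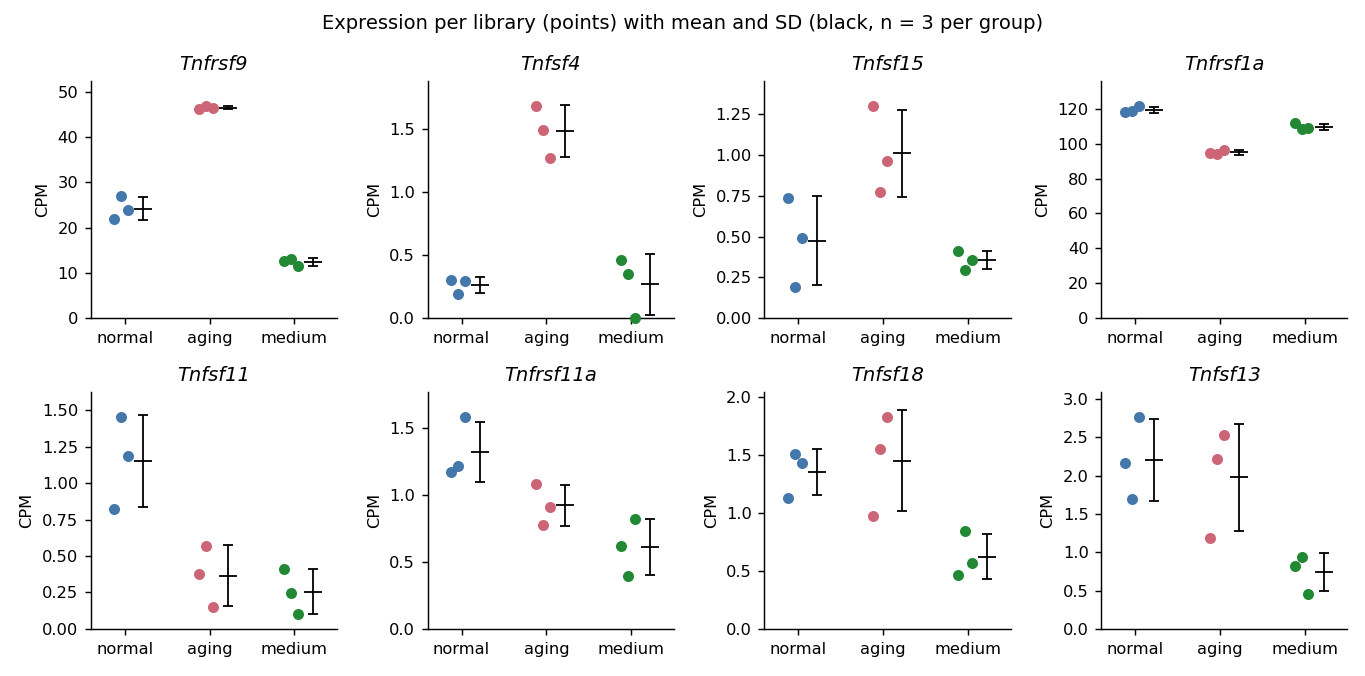
Level in CPM of 8 members in each library (points), with the group mean and SD beside them (n = 3 per group). Tnfrsf9, Tnfsf4 and Tnfsf15 are highest in the 3 aging libraries, Tnfrsf1a is lowest there at 94.0 to 96.3 CPM, and the other members have their lowest mean in the medium.

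Tnfrsf1a (chr6:125349362-125362484, plus strand) fell with D-galactose and rose in the medium, each time by a small and well separated step. It was at 118, 119 and 121 CPM in normal RGCs, 94.6, 94.0 and 96.3 CPM in aging RGCs and 112, 108 and 109 CPM in the medium. The aging libraries were lowest, the medium libraries were between, and no groups overlapped. The log2 fold changes were -0.33 (standard error 0.0387, edgeR adjusted p = 5.73e-08) for aging over normal, 0.21 (0.0392, adjusted p = 6.04e-05) for the medium over aging and -0.12 (0.0382, adjusted p = 0.00672) for the medium over normal. Of the 25 tested members, it was the only member called higher in the medium than in aging RGCs.

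Tnfrsf1b, the TNF receptor without a death domain, was at 71.2, 74.7 and 71.7 CPM in normal RGCs, 74.2, 71.4 and 75.2 CPM in aging RGCs and 76.2, 82.8 and 79.0 CPM in the medium. Its normal and aging libraries overlapped, with a log2 fold change of 0.02 (95% interval -0.07 to 0.12). The medium libraries were above both groups, by 0.11 over aging RGCs (edgeR adjusted p = 0.0507) and 0.13 over normal RGCs (edgeR adjusted p = 0.0162). The second of these had adjusted p of 0.0129 to 0.598 over the alternatives, the highest without TMM factors (0.03 on the log2 scale), and was lost in edgeR without normal replicate 1 (adjusted p = 0.0546), normal replicate 3 (0.0505) or medium replicate 2 (0.103). For Tnf, the ligand of both receptors, the values were 4.50, 2.96 and 2.62 CPM in normal RGCs, 4.43, 3.04 and 2.99 CPM in aging RGCs and 3.13, 1.74 and 2.87 CPM in the medium. The groups overlapped in every comparison, and the log2 fold changes were 0.04 (95% interval -0.44 to 0.52), -0.43 (-0.93 to 0.07) and -0.39 (-0.89 to 0.10). At 35 to 104 counts a library, no change in Tnf was called, and changes within these intervals remain possible.

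Tnfrsf22 and Tnfrsf23 are closely related TRAIL receptors in a cluster on chromosome 7 with Tnfrsf26, their counts carried decimals in all 9 libraries, and reads may be split between them, so their separate values are uncertain. Tnfrsf23 also overlaps E230032D23Rik on the other strand, and the counting's strand setting is not stated in the sources. Tnfrsf22 was at 39.9, 37.6 and 40.2 CPM in normal RGCs, 49.0, 49.3 and 47.0 CPM in aging RGCs and 41.7, 40.2 and 46.1 CPM in the medium. Tnfrsf23 was at 45.2, 53.0 and 52.2 CPM, then 60.9, 67.9 and 68.3 CPM, then 55.7, 55.3 and 58.1 CPM. The aging libraries were the highest for both genes. With D-galactose they rose by 0.30 and 0.39 on the log2 scale (standard errors 0.0583 and 0.0585, edgeR adjusted p = 8.79e-05 and 2.79e-06), and in the medium they fell by 0.18 and 0.22 from aging RGCs (edgeR adjusted p = 0.00937 and 0.00205). Without medium replicate 2 the fall of Tnfrsf22 was no longer called (-0.14, adjusted p = 0.0751), and that of Tnfrsf23 had adjusted p of 8.33e-05 to 0.0512 over the alternatives, with limma on FPKM past the threshold. Summed to 1 row, the pair gave 0.36 for aging over normal (edgeR adjusted p = 1.85e-07) and -0.21 for the medium over aging (edgeR adjusted p = 0.000302).

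Tnfrsf10b and Tnfsf10 (TRAIL) complete this system. Tnfrsf10b was at 75.9, 75.3 and 71.2 CPM in normal RGCs, 72.8, 79.0 and 81.0 CPM in aging RGCs and 75.9, 77.4 and 73.8 CPM in the medium, all groups overlapping, and its 95% intervals were -0.03 to 0.16, -0.13 to 0.06 and -0.07 to 0.13 in the 3 comparisons. Tnfsf10 had 10 to 31 counts a library, at 1.19 ± 0.113 CPM in normal RGCs, 1.18 ± 0.356 CPM in aging RGCs and 0.644 ± 0.163 CPM in the medium (SD, n = 3). It was called lower in the medium than in aging RGCs (-0.87, edgeR adjusted p = 0.0483) and than in normal RGCs (-0.88, edgeR adjusted p = 0.0374). DESeq2 called neither, and over the alternatives the adjusted p ran from 0.0214 to 0.0773 and from 0.0154 to 0.061, DESeq2 giving the highest. Without aging replicate 1 or 3 or medium replicate 1 or 2 the first call was lost (edgeR adjusted p = 0.0695, 0.259, 0.111 and 0.169), and without any normal library or medium replicate 1 or 2 the second (0.0543 to 0.141).

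In aging RGCs + USCs medium relative to aging RGCs, 11 of 25 members were lower, against 26% of all genes tested, and 1 was higher, against 27.1%. The 11 were 7 of the 9 tested ligands (Tnfsf4, Tnfsf9, Tnfsf10, Tnfsf12, Tnfsf13, Tnfsf15 and Tnfsf18) and 4 of the 16 tested receptors (Tnfrsf9, Tnfrsf22, Tnfrsf23 and Cd40). Of these, Tnfrsf9, Tnfsf4, Tnfsf13, Tnfsf15 and Tnfsf18 were downregulated DEGs, 5 of 25 against 4.21% of all genes, and no member was an upregulated DEG, against 1.24%. Tnfsf4 and Tnfsf15 passed the read filter through the aging libraries, so their being lower in the medium is in part fixed by the filter. Among the 19 members with a mean of at least 1 CPM, 9 were lower (47.4%), against 26.1% of the 11354 genes of that level, and 3 were downregulated DEGs, against 2.91%. Libraries of the medium and of aging RGCs were fully apart for 14 of 25 members, against 59.8% of all genes tested. The median log2 fold change was -0.87 over the tested ligands, -0.20 over the tested receptors and -0.0067 over all genes. The ligand median includes Tnfsf4 and Tnfsf15, and these medians were not matched for level. The 2 tested ligands that were not called, Tnf and Tnfsf11, had log2 fold changes of -0.43 and -0.51. These counts describe the members and are not a test of the family against other genes.

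**Figure D3:**
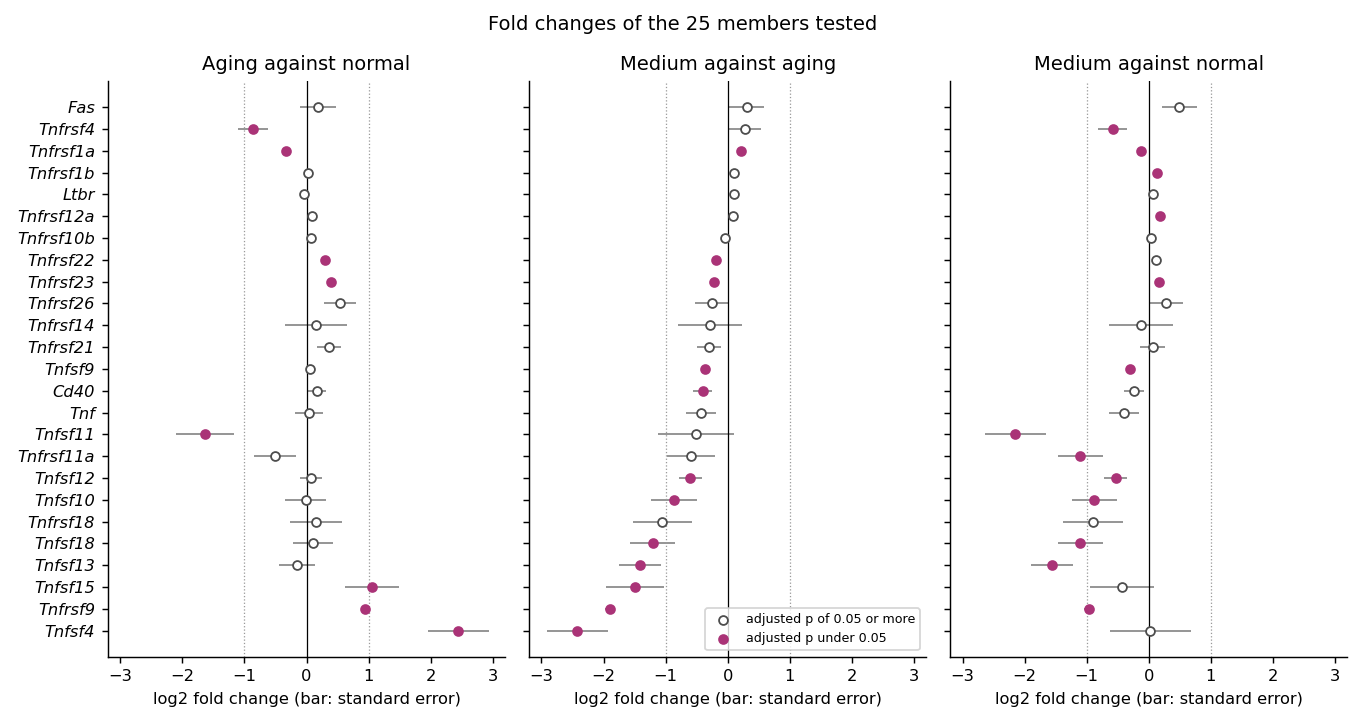
Log2 fold change of the 25 tested members in the 3 comparisons, with bars of 1 standard error, dotted lines at 2-fold, and filled points where the adjusted p is under 0.05. Members are ordered by the change with the medium over aging RGCs, where 11 filled points lie at left of 0 and 1, Tnfrsf1a, at right.

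Tnfsf18 (GITRL, chr1:161494655-161505290, plus strand), a costimulatory ligand, lies next to Tnfsf4 on chromosome 1. It had 26, 31 and 29 counts in normal RGCs, 18, 30 and 36 in aging RGCs and 9, 17 and 11 in the medium, or 1.13, 1.502 and 1.43 CPM, then 0.973, 1.55 and 1.82 CPM, then 0.462, 0.844 and 0.563 CPM. Unlike Tnfsf4, it overlapped between normal and aging RGCs, with a log2 fold change of 0.11 (standard error 0.317, edgeR adjusted p = 0.809). All medium libraries lay below all others, at -1.21 from aging RGCs (0.362, edgeR adjusted p = 0.00611) and -1.10 from normal RGCs (0.362, adjusted p = 0.01). Without medium replicate 1 the second change was -0.93 (edgeR adjusted p = 0.053). Its receptor Tnfrsf18 (GITR), with 6 to 24 counts and an antisense gene, was not called in any comparison (0.15, -1.05 and -0.90 on the log2 scale, edgeR adjusted p = 0.795, 0.0663 and 0.108).

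Tnfsf13 (APRIL) and Tnfsf12 (TWEAK) neighbour each other on chromosome 11 (chr11:69682846-69685784 and chr11:69686250-69695849, minus strand) and share exons with the readthrough gene Tnfsfm13, so their reads could be split between rows. Tnfsf13 also overlaps Tnfsf13os on the other strand, and the counting's strand setting is not stated in the sources. Tnfsf13 was at 2.17, 1.70 and 2.76 CPM in normal RGCs, 1.19, 2.21 and 2.53 CPM in aging RGCs and 0.822, 0.943 and 0.461 CPM in the medium. Tnfsf12 was at 4.07, 4.26 and 5.08 CPM, then 4.70, 4.48 and 4.91 CPM, then 2.52, 3.97 and 2.77 CPM. For both, the medium libraries lay below all others, and normal and aging libraries overlapped. Tnfsf13 changed by -1.41 from aging RGCs (standard error 0.343, edgeR adjusted p = 0.00101) and by -1.56 from normal RGCs (0.335, adjusted p = 0.000212). Tnfsf12 changed by -0.60 (0.185, edgeR adjusted p = 0.00732) and -0.53 (0.184, adjusted p = 0.0147). The Tnfsf12 calls were lost without medium replicate 1 (edgeR adjusted p = 0.0532 and 0.0894), and the second also without normal replicate 3 (0.0784) or medium replicate 3 (0.0625). With the 3 overlapping rows summed, the change from aging RGCs was -0.69 (edgeR adjusted p = 2.64e-05), a call that is no longer 2-fold.

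Tnfrsf12a (Fn14), the receptor of Tnfsf12, had the opposite order of group means to its ligand between aging RGCs and the medium. It was at 109.9, 111 and 115 CPM in normal RGCs, 117, 122 and 119.8 CPM in aging RGCs and 131, 129 and 123 CPM in the medium, with no overlap between groups. Neither step passed the threshold, at 0.10 (standard error 0.0399, edgeR adjusted p = 0.0503) and 0.09 (0.0398, adjusted p = 0.0535), but the medium was above normal RGCs by 0.19 (0.0397, adjusted p = 0.00018). The last call had adjusted p of 2.18e-05 to 0.0531 over the alternatives and was lost without TMM factors (0.09). Cd40, a costimulatory receptor of antigen-presenting cells, was at 6.0001 ± 0.639, 6.70 ± 1.13 and 5.07 ± 0.576 CPM (SD, n = 3) in normal RGCs, aging RGCs and the medium. Its change of -0.40 from aging RGCs (edgeR adjusted p = 0.0301) had adjusted p of 0.0101 to 0.0513 over the alternatives, DESeq2 giving the highest, and was lost in edgeR without aging replicate 1 (0.0602), aging replicate 2 (0.196) or medium replicate 3 (0.133).

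**Figure D4:**
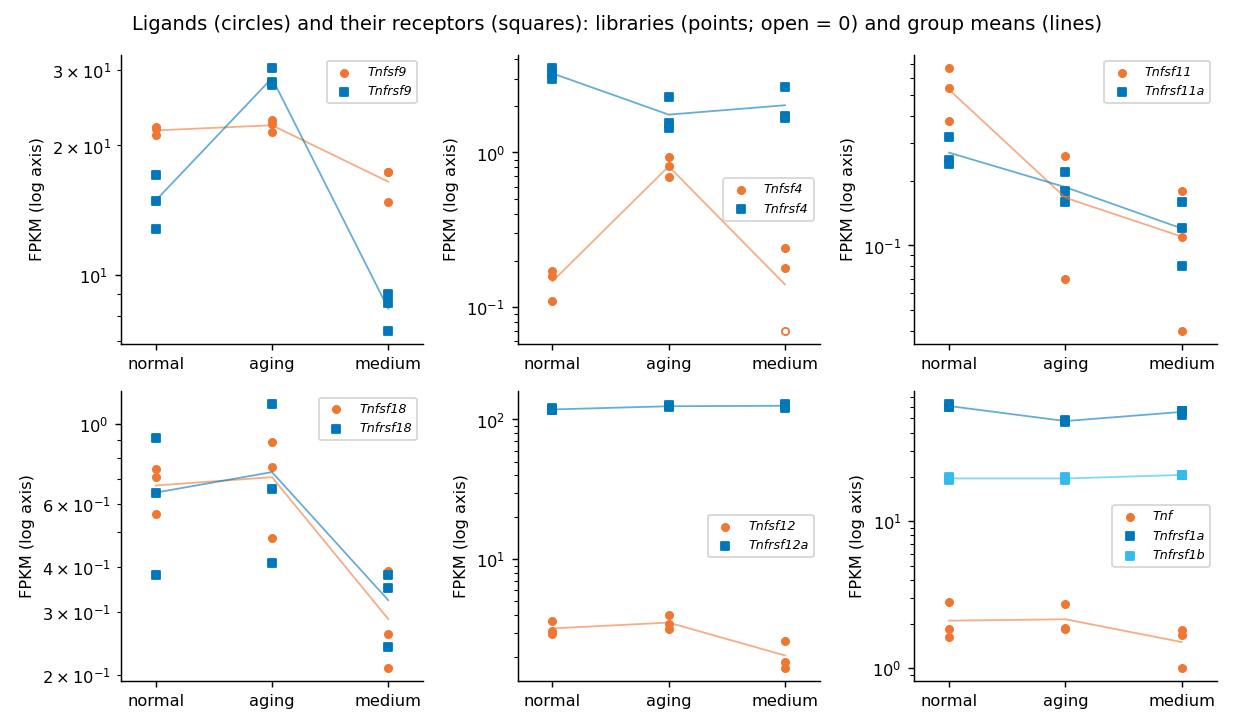
Level in FPKM, on log axes that differ between panels, of 6 ligands (circles) and their receptors (squares) in each library, with lines through the group means (an open symbol stands for 0). Tnfrsf9 lies above Tnfsf9 in the aging libraries only, Tnfsf4 and Tnfrsf4 move in opposite directions with D-galactose, and Tnfrsf12a and the TNF receptors stay above their ligands in every library.

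Relative to normal RGCs, the medium left 10 of 25 members lower, against 29.9% of all genes tested, and 3 higher, against 30.6%. The lower members were Tnfsf9, Tnfsf10, Tnfsf11, Tnfsf12, Tnfsf13, Tnfsf18, Tnfrsf1a, Tnfrsf4, Tnfrsf9 and Tnfrsf11a, and the higher ones Tnfrsf12a, Tnfrsf1b and Tnfrsf23. Tnfsf11, Tnfsf13, Tnfsf18 and Tnfrsf11a were downregulated DEGs, 4 of 25 against 5.24%, and no member was an upregulated DEG, against 1.47%. Tnfsf11 passed the read filter through the normal libraries, and among the 19 members with a mean of at least 1 CPM, 2 were downregulated DEGs, against 3.98% of genes of that level. Groups did not overlap for 15 members, against 63.8%. Without TMM factors none of the 3 receptors was called higher and 10 members were still called lower, and the median log2 fold change over all genes went from -0.01 to -0.11. Tnfrsf23 was higher by 0.17 (standard error 0.0593, edgeR adjusted p = 0.0142), a call lost without normal replicate 1 (0.10, adjusted p = 0.152) or medium replicate 3 (0.15, adjusted p = 0.0618). This comparison and those above share libraries, so their counts are not independent of each other.

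Several members with a known part in cell death or lymphoid signaling were not called in any comparison. Fas, the death receptor of Fasl, was at 1.47, 1.26 and 1.04 CPM in normal RGCs, 1.14, 1.34 and 1.82 CPM in aging RGCs and 1.85, 1.49 and 2.00 CPM in the medium. Its medium libraries lay just above its normal libraries, with a log2 fold change of 0.49 (95% interval -0.10 to 1.08, edgeR adjusted p = 0.141). Ltbr was at 66.1, 64.4 and 66.5 CPM, 60.8, 65.4 and 66.2 CPM, and 72.1, 64.3 and 70.2 CPM in normal RGCs, aging RGCs and the medium, all overlapping. Beside Tnfrsf10b and Tnfrsf18, described above, the other uncalled receptors were Tnfrsf14, Tnfrsf21 (death receptor 6) and Tnfrsf26, which overlaps an antisense gene, with log2 fold changes of 0.16, 0.36 and 0.54 for aging over normal and -0.28, -0.30 and -0.26 for the medium over aging. At 4 to 17 counts a library, Tnfrsf14 had 95% intervals about 2 log2 units wide (-0.87 to 1.18 for aging over normal), and a 2-fold rise lies within that interval.

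Beside the ligands and receptors, genes of the same pathways were read out from lists chosen with earlier results of these data known. The TNF-inducible targets include chemokines, adhesion molecules and proteases known to respond to TNF. They were called in both directions with D-galactose, and more often lower than higher in the medium. Some of these targets also stand in another list. Of 24 tested, 4 were higher and 4 lower in aging RGCs, against 23.6% and 23% of all genes tested, with Ptgs2 (cyclooxygenase) falling from 541 ± 39.1 to 199 ± 7.42 CPM (SD, n = 3, log2 fold change -1.44, edgeR adjusted p = 4.48e-21). In the medium relative to aging RGCs, 11 were lower and 4 higher, against 26% and 27.1% of all genes tested. The other 9 were not called, and the list median was -0.16. Mmp3, a matrix protease, was at 27.5 to 30.6 CPM in aging RGCs and 0.615 to 1.49 CPM in the medium (log2 fold change -4.75, edgeR adjusted p = 1.79e-20). Mmp9 and Ccl20 changed by -3.07 and -2.99 (edgeR adjusted p = 4.32e-15 and 4.81e-12). Vcam1, an adhesion molecule, went from 54.4 ± 2.06 to 20.8 ± 1.45 CPM (-1.39, edgeR adjusted p = 1.51e-16), and Lif and Cxcl10 changed by -1.14 and -1.08 (edgeR adjusted p = 1.21e-10 and 0.000704). The 4 higher targets were Sod2, Csf1, Tnfaip2 and Cxcl1, at 0.30, 0.15, 0.21 and 0.56 (edgeR adjusted p = 1.96e-05, 0.00384, 0.00018 and 5.63e-07). Relative to normal RGCs, 11 were lower and 3 higher in the medium, against 29.9% and 30.6% of all genes tested, with Mmp3, Mmp9, Ccl20, Ptgs2, Csf2 and Cxcl10 at least 2-fold lower.

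Signaling genes downstream of the receptors were called in both directions, and their counts stand against the same shares of all genes tested, 23.6% higher and 23% lower with D-galactose and 27.1% higher and 26% lower in the medium relative to aging RGCs. Of 17 tested receptor-proximal adaptors and ubiquitin enzymes, 4 were higher and 4 lower both with D-galactose and in the medium relative to aging RGCs, and Traf5 changed most in the medium, from 7.44 to 4.51 CPM (log2 fold change -0.72, edgeR adjusted p = 7.59e-05). With D-galactose the largest change of this list was Rnf31, a subunit of the linear ubiquitin ligase, at -0.47 (edgeR adjusted p = 0.000829). Of 13 kinases of the NF-kB and JNK arms, 1 was higher and 4 lower with D-galactose, and 4 were higher and 3 lower in the medium relative to aging RGCs. Their largest changes were Mapk9 (JNK2) at -0.37 with D-galactose (edgeR adjusted p = 1.24e-07) and Map3k5 (ASK1) at -0.41 in the medium relative to aging RGCs (edgeR adjusted p = 0.00265). Of 9 death-arm genes, 3 were higher and 3 lower, then 2 higher and 2 lower. Relative to normal RGCs the medium gave 2 higher and 4 lower, against 30.6% and 29.9% of all genes tested. Cflar, the caspase-8 inhibitor c-FLIP, was at -0.36 in that comparison (edgeR adjusted p = 8.14e-07). Of 8 NF-kB subunits and inhibitors, 3 were higher and 2 lower, then 2 higher and 2 lower. Among these, Nfkbie, an inhibitor of NF-kB that is itself an NF-kB target, was at 8.62 ± 0.661 CPM in normal RGCs, 11.8 ± 0.567 CPM in aging RGCs and 5.51 ± 0.390 CPM in the medium (SD, n = 3). Its groups did not overlap, and its log2 fold changes were 0.46 (edgeR adjusted p = 0.00125) and -1.10 (edgeR adjusted p = 9.56e-09).

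Of 5 tested processing and shedding enzymes, none was higher with D-galactose or in the medium relative to aging RGCs, against 23.6% and 27.1% of all genes tested. With D-galactose 3 were lower, against 23%, and in the medium relative to aging RGCs 3 were lower, against 26%. Rhbdf2, which brings the TNF sheddase Adam17 to the cell surface, was highest in normal RGCs at 110.3 ± 4.03 CPM, with 74.1 ± 1.85 CPM in aging RGCs and 66.4 ± 2.85 CPM in the medium (SD, n = 3). Its changes were -0.57 (edgeR adjusted p = 2.28e-11) and -0.16 (edgeR adjusted p = 0.00544). Adam17 changed by -0.27 with D-galactose (edgeR adjusted p = 1.12e-06) and by 0.07 in the medium relative to aging RGCs (edgeR adjusted p = 0.115). Among family members outside the symbol rule, Eda2r, the ectodysplasin A2 receptor, was also highest in aging RGCs, at 26.1 ± 2.62, 41.4 ± 0.876 and 29.7 ± 1.56 CPM (SD, n = 3) in normal RGCs, aging RGCs and the medium. It rose by 0.67 with D-galactose (edgeR adjusted p = 4.41e-09) and fell by 0.48 in the medium (edgeR adjusted p = 8.92e-07). Relt, the other tested gene of these 5, was higher than in normal RGCs both with D-galactose, by 0.51 (edgeR adjusted p = 0.0322), and in the medium, by 0.50 (edgeR adjusted p = 0.0258). The medium and aging libraries overlapped for Relt, with a log2 fold change of -0.0047 (edgeR adjusted p = 0.984).

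**Figure D5:**
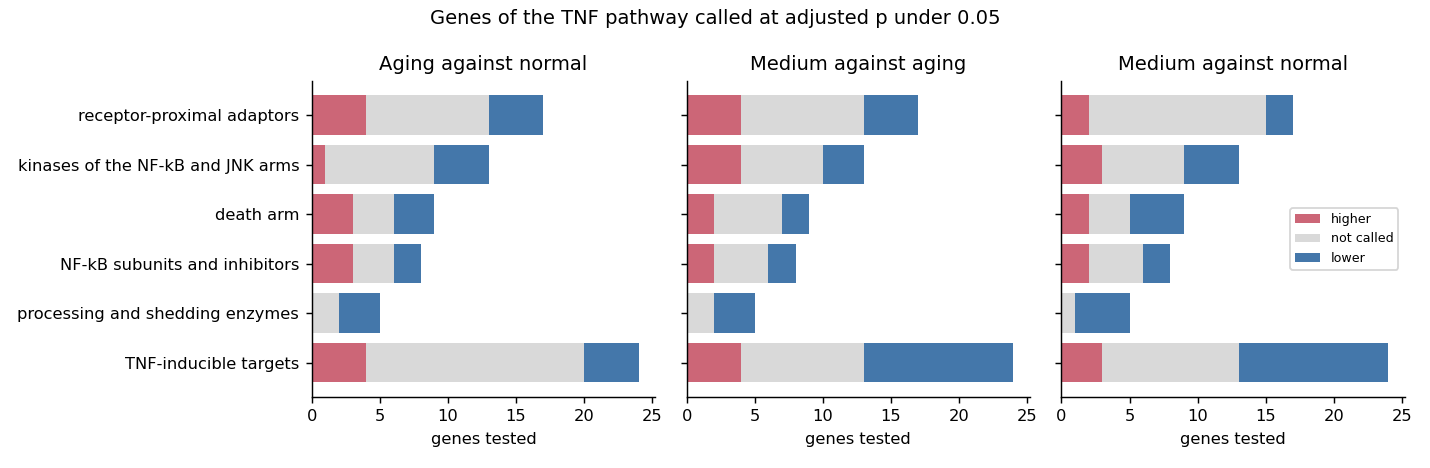
Number of tested genes of 6 pathway lists called higher, lower or not called in each comparison (bars start at 0, adjusted p under 0.05). The TNF-inducible targets have 4 higher and 4 lower genes in aging RGCs and 11 lower genes of 24 in the medium, relative to aging or normal RGCs.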

How the data were processed

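RNA sequencing gave 9 libraries of oligo(dT)-selected mRNA, which the labels place in 3 groups of 3. The authors deposited for each gene an expected count, estimated and without normalization, and its FPKM, which corrects for length and library size. The submitters' processing notes name mm10, and no source used here gives the aligner, counter, annotation or test. Expected counts were rounded, since 6.92% to 7.38% of the values of a library carried decimals.

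With edgeR 4.0.16 in R 4.3.3, filterByExpr (minimum count 10) kept 12145 genes, so 45.6% were not tested. TMM factors (0.956 to 1.03) were used, and a model with 1 mean per group, fitted on the 9 libraries (6 residual degrees of freedom), gave each contrast a quasi-likelihood F test. The method was tested on simulated data. The biological coefficient of variation was 3.78%. CPM values use TMM-scaled library sizes, and standard errors and 95% intervals follow from the F statistics. Intervals and floors of counts cover counting error only where so stated.

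The family, pathway lists and marker lists were chosen with earlier results of these data known, while membership in the family was set by symbol only. Named with every library's value were member DEGs of any comparison, the 8 members highest in mean FPKM, Tnfrsf1a, Tnfrsf1b, Fas and Tnf; other tested members got a fold change or level, and pathway genes were named where at least 2-fold and called, or largest in their list, with Adam17 and the 4 higher targets named after their values were seen. Some genes of the lists are not reported here by name. Coordinates are from GENCODE M21 on GRCm38. Alternatives were DESeq2 1.42.0, no TMM factors, upper-quartile factors, other filters, the likelihood ratio test, fits on only the groups compared, a replicate block, limma 3.58.1 on log2(FPKM + 1) and log2(FPKM + 0.1), and each library left out. Summing rows that overlap or are near-identical was chosen after seeing the data.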

Additional observations from a re-analysis of the deposited data

How the results depend on the processing

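Member DEGs for aging over normal numbered 3, and 1 with a filter of 1 CPM in 3 libraries, 0 with limma on log2(FPKM + 1) and 1 with log2(FPKM + 0.1). The limma fits left out Tnfsf11 and Tnfsf15 as low, while Tnfsf4 stayed called, at 0.66 and 1.89 on these scales, where the pseudocount shrinks folds of low genes. For the medium over aging, members called higher numbered 1, 2 by the likelihood ratio test and 3 with only the groups compared, and DEGs 5, or 1 with limma on log2(FPKM + 1). For the medium over normal, members called higher numbered 3, 0 without TMM factors and 1 with either limma fit, and DEGs 4, or 0 and 2 with limma. With each library left out, members higher, lower and DEGs numbered 4 to 6, 3 to 4 and 2 to 4 for aging over normal, 1 to 2, 9 to 10 and 5 to 6 for the medium over aging, and 1 to 3, 7 to 8 and 3 to 5 for the medium over normal. Of 644 alternative values for 40 fold changes, 576 kept direction and side of the threshold, 55 lost the call and 13 turned direction, all of the last among changes not called. Those were Tnfsf13 for aging over normal (0.0139 with rows summed), Tnfsf4 for the medium over normal (-0.0727 without TMM factors, -0.0092 with upper-quartile factors, -0.0140 and -0.21 with limma), and, with libraries left out, Tnfsf18 (-0.0935 to 0.32) and Tnfsf13 (-0.37 to 0.10) for aging over normal and Tnfsf4 (-0.57 to 0.60) and Tnfsf15 (-0.79 to 0.0516) for the medium over normal. The cause was not tested.

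No pairing by replicate number was seen over all tested genes, where deviations of same-numbered libraries correlated at -0.04 to 0.05. Pairing that acts on some genes only would not show in these values. With a replicate block, members higher, lower and DEGs numbered 5, 3 and 3, then 1, 10 and 5, then 3, 10 and 4, and Tnfsf10 lost its call for the medium over aging (-0.86, edgeR adjusted p = 0.0572). Depth limits the low members: 3 counts equal 0.130 to 0.162 CPM.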
